A study of Mus musculus with 3 samples.

Results

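Fc receptors bind the constant part of antibodies, and their genes were followed here on 3 Affymetrix mouse expression arrays, 1 for each of 3 cell populations sorted from the spleen. The set held 6 genes, taken as every probe set of the value table that the platform annotation pairs with Fcgr1, Fcgr2b, Fcgr3, Fcgr4, Fcer1g or Fcgrt alone. That gave 11 probe sets of the 45037 on the array that are not controls, and no probe set shared a member's name with another gene. The members were picked by gene name and not by a measured threshold, with earlier results of these data known.

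The populations were red pulp macrophages, sorted as high for the surface antigen encoded by Adgre1 and for a green fluorescent reporter of Spic, then Spic-positive monocytes and Spic-negative monocytes, both sorted as CD11b+ Ly6C+ cells and split by the same reporter. Spic is a transcription factor of red pulp macrophages. All 3 came from adult Spic(igfp/+) mice, in which 1 Spic allele carries the reporter, and the monocytes that serve as the comparison carry the same reporter allele. Neither the number, sex or strain background of the mice nor any pooling of animals is stated in the labels. Monocytes were sorted after magnetic depletion of cells bearing CD4, CD8 or B220. For the macrophages the labels differ on whether this step was done. Each population had 1 array, so no spread between animals could be measured, no test was possible, and differences are described by their size.

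Several kinds of protein make up this family. Fcgr1, Fcgr3 and Fcgr4 encode activating receptors for IgG, which reach the cell surface and signal with the shared gamma chain encoded by Fcer1g. The gamma chain carries an immunoreceptor tyrosine-based activation motif (ITAM), which recruits the kinase Syk when a receptor is clustered by antibody. Fcgr2b encodes the inhibitory IgG receptor, whose inhibitory motif (ITIM) recruits the lipid phosphatase SHIP1, encoded by Inpp5d. Fcgrt encodes the heavy chain of FcRn, a relative of MHC class I molecules that pairs with beta 2 microglobulin inside the cell and returns IgG and albumin to the surface instead of letting them be degraded. In the spleen, red pulp macrophages use Fc gamma receptors to take up red cells and platelets coated with antibody.

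The deposited values are log2 levels per probe set. Each gene was represented by its brightest probe set by mean level, and 12375 genes whose brightest array lay above a floor of log2 5.02, the median of all probe sets, were compared. All 6 members were among them. Of the 11 probe sets, 10 lay above the floor on every array, and 1, the Fcgr2b probe set 1447622_at, lay below it on every array, at 2.43 in red pulp macrophages, 2.74 in Spic-positive monocytes and 2.43 in Spic-negative monocytes.

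The labels were checked first. Spic measured log2 12.23 in red pulp macrophages, 9.22 in Spic-positive monocytes and 5.66 in Spic-negative monocytes, and all 16 genes listed as typical of these macrophages differed by over 2-fold upwards from either monocyte population. Spic and Adgre1, on which the cells were sorted, are among the 16, and the list was chosen with earlier results of these data known. The 18 hybridization controls, added at a fixed amount, had a median difference of log2 2.16 between the Spic-positive and Spic-negative arrays. Between the macrophage and Spic-positive arrays it was -2.10, and between the macrophage and Spic-negative arrays 0.07. For Gapdh, controls at the 3' end exceeded those at the 5' end by 1.61 on the macrophage array, 2.25 on the Spic-positive and 0.48 on the Spic-negative array. The same gap for beta-actin was 1.13, 0.57 and 0.74 on those arrays, so the controls did not rank the arrays alike. The part of these array differences in the results below was not tested, and macrophages against Spic-negative monocytes is the comparison that does not use the Spic-positive array.

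The members split in the macrophages. Fcgr4, Fcgr1 and Fcgrt had higher levels there than in either monocyte population, Fcgr2b had lower levels, Fcer1g lay close to 2-fold lower, and Fcgr3 differed by less than 2-fold. The promoters of the 3 genes that were higher and of the 1 that was clearly lower are shown, because these genes carry the split, from 250 bases before to 50 bases after the start site (RefSeq, GRCm38.p6). Capitals mark matches to GAGGAA, the core of the sites bound by Spic and its relative PU.1 (TTCCTC on the other strand), to TTCNNNGAA, the interferon gamma type STAT site, and to the core of interferon response elements, a pair of GAAA with any 2 bases between them. All were searched on both strands, and no match overlapped another.
Fcgr4, chr1:171018676-171018975 (plus strand): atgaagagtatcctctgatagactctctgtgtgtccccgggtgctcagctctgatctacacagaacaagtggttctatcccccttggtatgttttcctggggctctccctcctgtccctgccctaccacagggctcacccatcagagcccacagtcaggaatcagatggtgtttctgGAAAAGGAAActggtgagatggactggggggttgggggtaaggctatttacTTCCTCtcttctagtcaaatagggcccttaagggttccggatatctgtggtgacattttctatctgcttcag
Fcgr1, chr3:96293920-96294219 (minus strand): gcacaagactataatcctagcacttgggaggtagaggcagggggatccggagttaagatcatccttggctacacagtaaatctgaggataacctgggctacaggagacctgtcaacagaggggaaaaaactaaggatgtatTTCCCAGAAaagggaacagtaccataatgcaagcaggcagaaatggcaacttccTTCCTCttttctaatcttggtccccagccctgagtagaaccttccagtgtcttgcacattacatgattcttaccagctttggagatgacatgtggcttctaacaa
Fcgrt, chr7:45103773-45104072 (minus strand): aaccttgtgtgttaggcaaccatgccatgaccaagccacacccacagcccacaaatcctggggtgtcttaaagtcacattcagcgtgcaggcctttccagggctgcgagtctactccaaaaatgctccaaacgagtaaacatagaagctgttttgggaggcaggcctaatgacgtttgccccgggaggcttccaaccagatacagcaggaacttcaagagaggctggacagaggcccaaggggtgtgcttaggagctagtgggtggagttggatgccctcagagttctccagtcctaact
Fcgr2b, chr1:170976022-170976321 (minus strand): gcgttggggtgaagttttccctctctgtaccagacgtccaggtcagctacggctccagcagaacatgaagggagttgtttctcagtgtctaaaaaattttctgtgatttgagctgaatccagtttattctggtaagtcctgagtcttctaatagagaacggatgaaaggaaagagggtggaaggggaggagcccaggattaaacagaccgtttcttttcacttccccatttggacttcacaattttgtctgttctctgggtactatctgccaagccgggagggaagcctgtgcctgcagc

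GAGGAA matched in the windows of 3 of the 6 member genes, namely Fcgr1, Fcgr3 and Fcgr4, each time as TTCCTC. The match lay 22 to 17 bases before the start site in Fcgr4 and 55 to 50 bases before it in Fcgr1. In Fcgr3, whose 2 listed starts lie close together, it lay 6 to 1 or 15 to 10 bases before them. Of 32851 mouse promoter windows of the same length, 28.3% hold this motif. TTCNNNGAA matched in Fcgr1, as TTCCCAGAA 109 to 101 bases before the start, and 8.3% of all windows hold it. The interferon response core matched in Fcgr4, as GAAAAGGAAA 73 to 64 bases before the start, against 3.44% of all windows. These letters were not in the windows of Fcgr2b, Fcer1g or Fcgrt. A match describes the letters of the window and is no evidence that a factor binds there.

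Among the activating receptors, Fcgr4 measured log2 11.59 in red pulp macrophages, 8.79 in Spic-positive monocytes and 9.04 in Spic-negative monocytes on its probe set 1425225_at. Fcgr4 encodes Fc gamma RIV, which binds IgG2a and IgG2b in mice. The macrophage array stood above both monocyte arrays, by 2.55 against Spic-negative monocytes (5.85-fold) and by 2.79 against Spic-positive monocytes (6.93-fold), while Spic-positive differed from Spic-negative monocytes by -0.24.

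Fcgr1 measured 11.34 in red pulp macrophages, 9.21 in Spic-positive monocytes and 9.67 in Spic-negative monocytes on probe set 1417876_at. Fcgr1 encodes Fc gamma RI (CD64), the high-affinity receptor for IgG and a common marker of macrophages. It was higher in macrophages by 1.67 against Spic-negative monocytes (3.18-fold) and by 2.13 against Spic-positive monocytes (4.38-fold). Its other probe set, 1436625_at, measured 9.05 in macrophages, 8.12 in Spic-positive monocytes and 8.11 in Spic-negative monocytes. Both probe sets had macrophages on top, but the second gave differences of 0.93 against each monocyte array, under 2-fold.

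Fcgr3 measured 11.75 in red pulp macrophages, 12.03 in Spic-positive monocytes and 12.27 in Spic-negative monocytes on its probe set 1448620_at. Fcgr3 encodes Fc gamma RIII (CD16), a low-affinity receptor for immune complexes. Its level was lowest in macrophages, but by only -0.52 against Spic-negative and -0.28 against Spic-positive monocytes, both under 2-fold. The 3 activating receptors therefore did not share a direction: 2 of them were over 2-fold higher in macrophages and Fcgr3 was not.

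Fcer1g, the gamma chain that all 3 need, measured 12.16 in red pulp macrophages, 13.12 in Spic-positive monocytes and 13.17 in Spic-negative monocytes on probe set 1418340_at. It was lower in macrophages 2.01-fold against Spic-negative and 1.94-fold against Spic-positive monocytes. The first of these also moved to under 2-fold when the arrays were scaled in 3 other ways, with values between -0.96 and -0.83. The signalling chain was thus not higher on the array where Fcgr1 and Fcgr4 were.

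Fcgr2b, the inhibitory receptor, measured 9.52 in red pulp macrophages, 12.67 in Spic-positive monocytes and 12.31 in Spic-negative monocytes on its brightest probe set, 1435477_s_at. The macrophage level was lower by -2.79 against Spic-negative monocytes, which is 6.92-fold, and by -3.15 against Spic-positive monocytes, which is 8.89-fold. This was the lowest difference of the 6 members, and 0.945% and 0.323% of all compared genes had a lower one. Fcgr2b and Fcgr3 encode similar extracellular parts, and probe sets ending in _s_at or _x_at can bind more than 1 transcript. The probe sets 1435476_a_at and 1451941_a_at, which do not carry those endings, measured 8.59 and 8.60 in macrophages, 11.73 and 11.15 in Spic-positive monocytes, and 11.46 and 11.34 in Spic-negative monocytes. Over the 4 Fcgr2b probe sets above the floor, the macrophage difference lay between -2.87 and -2.74 against Spic-negative monocytes and between -3.28 and -2.55 against Spic-positive monocytes. In sorted populations, fewer cells carrying a transcript and less of it per cell cannot be told apart.

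Fcgrt, the FcRn heavy chain, measured 11.80 in red pulp macrophages, 8.34 in Spic-positive monocytes and 9.06 in Spic-negative monocytes on probe set 1416978_at. The macrophage level was higher by 2.74 against Spic-negative monocytes (6.70-fold) and by 3.46 against Spic-positive monocytes (11.0-fold), the highest difference of the 6 members in each comparison. Against Spic-positive monocytes, 98.4% of all compared genes had a lower difference. Among the members, Fcgrt also had the lowest difference between the monocyte arrays.

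**Figure D1:**
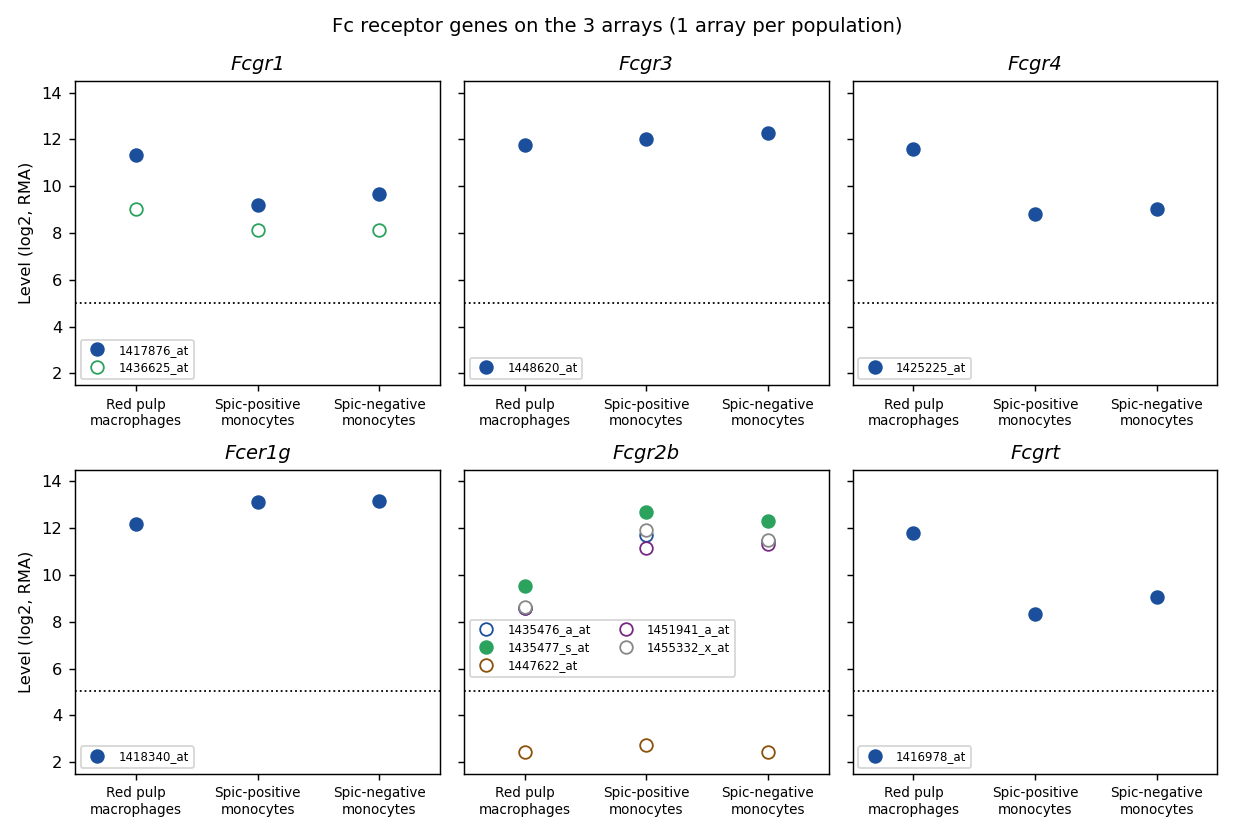
Log2 level (vertical axis) of every probe set of the 6 Fc receptor genes on the macrophage, Spic-positive and Spic-negative monocyte arrays (horizontal axis); filled points are the probe set used for the gene and the dotted line is the floor at 5.02. Fcgr4, Fcgr1 and Fcgrt stand highest in macrophages, Fcgr2b stands lowest there on its 4 probe sets above the floor, and Fcgr3 differs by under 2-fold.

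Counted at a limit of 2-fold, 3 of the 6 members were higher in red pulp macrophages than in Spic-negative monocytes, 2 were lower, and Fcgr3 lay under the limit. Over all 12375 genes, 19.6% were higher and 11.3% lower by that measure, 30.9% in either direction. At 4-fold, 2 members (Fcgrt and Fcgr4) were higher and 1 (Fcgr2b) lower, beside 7.38% and 2.63% of all genes, 10% in either direction. The median of the 6 differences was 0.57, against 0.03 over all genes. With 6 genes and no replicate, the counts describe these arrays only.

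Against Spic-positive monocytes, 3 members were at least 2-fold higher in red pulp macrophages and 1 lower, with Fcgr3 and Fcer1g under 2-fold. The background was 22% of genes higher and 11.6% lower, 33.6% together. At 4-fold the same 3 genes were higher and Fcgr2b lower, beside 7.22% and 2.04% of all genes, 9.25% together. Fcgr1 passed 4-fold on its brightest probe set only: its other one gave 0.93, the mean of both 1.53, and a second quantile normalization 1.97. The median of the members was 0.93, against 0.10 over all genes. This comparison and the preceding one share the macrophage array, so they are not independent of each other.

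**Figure D2:**
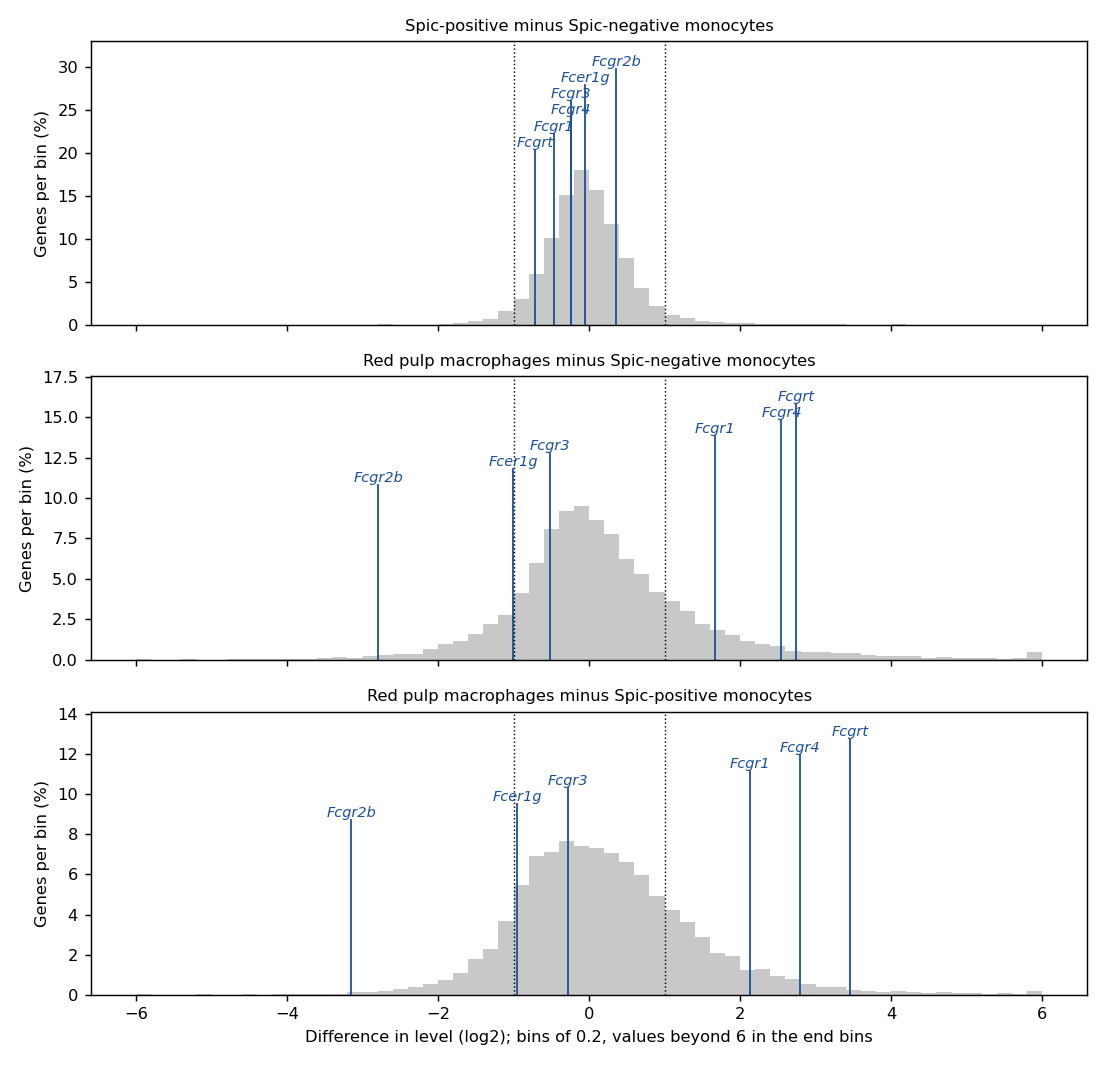
Histograms (grey, percent of the 12375 compared genes per bin of 0.2) of the log2 difference in each comparison, with the 6 Fc receptor genes as labelled blue lines and 2-fold as dotted lines. The members lie close together between the monocyte arrays and spread from -2.79 to 2.74 in macrophages against Spic-negative monocytes.

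Between the monocyte populations no member reached 2-fold, beside 3.49% of all genes higher and 3.06% lower in Spic-positive monocytes, 6.55% together. At 4-fold the background was 0.663% higher and 0.0485% lower, 0.711% together, and again no member was called. The differences were -0.72 for Fcgrt, -0.46 for Fcgr1, -0.24 for Fcgr4, -0.24 for Fcgr3, -0.05 for Fcer1g and 0.36 for Fcgr2b. Probe sets of 1 gene differed from each other in this comparison by a robust SD of 0.53 over 5509 genes. That value measures disagreement of probe sets, not spread between arrays or animals. Only Fcgrt, which has 1 probe set, had a difference larger in size, and this does not show that it stands out. The second Fcgr1 probe set differed by 0.0036, so the lower Spic-positive level of Fcgr1 was seen on 1 of its 2 probe sets. The 4 Fcgr2b probe sets lay between -0.19 and 0.44, with 3 of 4 higher in Spic-positive monocytes. Of the 16 listed red pulp macrophage genes, 12 passed 2-fold upwards in the same comparison. That list holds Spic, whose reporter split the monocytes, and was chosen with earlier results of these data known. It is therefore no independent yardstick for the members. Of the genes past 2-fold 53.3% were higher in Spic-positive monocytes, a share that was 42.4% with arrays centred on their medians and 63.3% after cyclic loess.

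The balance between activating and inhibitory receptors was compared between arrays as the difference of each member minus that of Fcgr2b. Relative to Fcgr2b, macrophages were higher than Spic-negative monocytes by log2 5.34 for Fcgr4, 4.46 for Fcgr1 and 2.27 for Fcgr3. From the mean of probe sets the Fcgr1 value was 3.55. So even Fcgr3, which differed little itself, changed unequally to Fcgr2b by over 4-fold. The value for the gamma chain Fcer1g was 1.79 and that for Fcgrt 5.53. Against Spic-positive monocytes the values were 5.94 for Fcgr4, 5.28 for Fcgr1, 2.87 for Fcgr3 and 2.20 for Fcer1g, with 4.01 for Fcgr1 from the mean of probe sets. Between Spic-positive and Spic-negative monocytes they were small and negative for the activating receptors, at -0.61 for Fcgr4, -0.83 for Fcgr1 and -0.61 for Fcgr3. From the mean of probe sets, Fcgr1 differed by -0.23 and Fcgr2b by 0.24 there. Single probe sets can turn the sign for Fcgr1, as 1436625_at of Fcgr1 differed by 0.0036 and 1451941_a_at of Fcgr2b by -0.19. These values say that the genes changed unequally, not which of them is more abundant.

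The ligands were measured in part. Of 12 immunoglobulin genes listed, 4 were compared. In red pulp macrophages against Spic-negative monocytes, Ighg3, the IgG3 heavy chain, was higher by 7.26, Ighm, the IgM heavy chain, by 3.02, and the joining chain gene Jchain by 1.55, while Igha, the IgA heavy chain, differed by 0.38. Ighg3 measured log2 13.31 in macrophages, 6.39 in Spic-positive monocytes and 6.05 in Spic-negative monocytes. These Ighg3 values rest on 1 of its 4 probe sets, as the others lay under the floor on every array. The 4 compared genes are expressed by B lineage cells. Of 7 plasma cell markers, Jchain among them, 5 were also over 2-fold higher in macrophages than in Spic-negative monocytes, beside 19.6% of all genes. The list median was 1.72, and Mzb1 (4.55) and Tnfrsf17 (3.17) were among the 5. Tnfrsf17 lay under the floor on both monocyte arrays. The part of RNA from B lineage cells in these values was not tested.

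Of the other Fc receptors and receptor-like genes, 7 of 14 listed were compared. The alpha and beta chains of the high-affinity IgE receptor, Fcer1a and Ms4a2, which share the gamma chain in mast cells and basophils, were under the floor on every array, as were the transport receptor Pigr and Fcamr, a receptor for IgA and IgM. In macrophages 4 of the 7 were higher by over 2-fold than in Spic-negative monocytes and none lower, namely Fcrl1 (3.61), Fcrla (2.16), the IgM receptor gene Fcmr (1.58) and Fcrls (1.48). Over all genes, 19.6% were higher and 11.3% lower. Fcrla, at 4.75, and Fcrls, at 4.40, were under the floor in Spic-negative monocytes, and with such levels set to the floor their differences were 1.89 and 0.85, leaving 3 genes past 2-fold. Between Spic-positive and Spic-negative monocytes 4 were at least 2-fold higher, namely Fcrl1 (1.62), Fcmr (1.57), Fcrla (1.46) and Fcer2a (1.38), which encodes the low-affinity IgE receptor CD23. Over all genes, 3.49% were higher. The other Fcrl1 probe set, above the floor on every array, gave 0.49 in this comparison and 1.19 in macrophages against Spic-negative monocytes. Further probe sets gave 1.03 and 0.75 for Fcrla and 0.11 for Fcer2a between the monocyte populations. The list median was 1.38 against -0.06 over all genes. In Spic-negative monocytes Fcer2a (4.45) and Fcrla were under the floor. Set to the floor, Fcer2a differed by 0.81 and Fcrla by 1.19, 3 genes passed 2-fold and the median was 0.81. That median was 0.79 from the mean of each gene's probe sets and 0.52 with no floor. Fcrl1, Fcrla, Fcmr and Fcer2a are typical of B cells in mice. Trim21, the antibody receptor of the cytosol, measured 8.51 in macrophages, 8.71 in Spic-positive monocytes and 8.19 in Spic-negative monocytes, all within 2-fold.

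Markers of several other cell types also differed between the arrays. Of the 12 B cell markers compared, 10 stood over 2-fold above Spic-negative monocytes on the Spic-positive array, beside 3.49% of all genes. Fcer2a, already counted among the other Fc receptors, is 1 of these 10. The mean level of the 12 was log2 6.94 in red pulp macrophages, 7.45 in Spic-positive monocytes and 5.66 in Spic-negative monocytes. The B cell factor gene Pax5 was near the floor, at 5.05 in macrophages, 5.29 in Spic-positive monocytes and 4.69 in Spic-negative monocytes. With levels below the floor set to it, 8 of the 12 passed 2-fold. B cells carry Fcgr2b as their only classical Fc gamma receptor. Fcgr2b and the B cell mean were both highest on the Spic-positive array. Fcgr2b was lowest in macrophages and the B cell mean lowest in Spic-negative monocytes. The Spic-positive array also had the highest mean of 8 dendritic cell markers, at 7.95, against 7.18 in macrophages and 6.94 in Spic-negative monocytes. The mean of 9 neutrophil markers was highest there too, at 10.38, so this ranking was not particular to B cell markers. The other marker lists had their highest mean on another array. NK cells carry Fcgr3, and 5 of 8 NK cell markers were at least 2-fold higher in macrophages than in Spic-negative monocytes, with mean levels of 7.48 in macrophages, 5.29 in Spic-positive and 5.04 in Spic-negative monocytes. Of the 8, Gzma, Gzmb, Eomes and Ncr1 were compared only through the macrophage array, being under the floor on both monocyte arrays. Over all genes, 19.6% were higher and 11.3% lower in macrophages than in Spic-negative monocytes. Neutrophils carry Fcgr3 and Fcgr4, and of 9 neutrophil markers 2 were higher and 2 lower in macrophages than in Spic-negative monocytes, with a median difference of -0.19. All 9 erythroid markers compared were over 2-fold higher in macrophages than in either monocyte population. Klf1, Slc4a1, Hemgn and Car2 were compared only through the macrophage array, being under the floor on both monocyte arrays. With such levels set to the floor, all 9 still passed 2-fold. The 11 erythroid markers on the array include Hba-a1 and Epb42, which were under the floor on every array on the probe set used for each gene. The other Epb42 probe set measured 6.91 in macrophages, 2.92 in Spic-positive and 2.48 in Spic-negative monocytes. On the probe sets used, the 11 markers averaged 8.99 in macrophages, 4.63 in Spic-positive and 4.50 in Spic-negative monocytes. Of 11 listed mast cell, basophil and eosinophil markers, which mark cells that carry Fcgr2b, Fcgr3 and Fcer1g, 4 had a level above the floor on some array. Of these Mcpt8 measured 8.01 and Prg2 8.89 in macrophages, and both were under the floor in both monocyte populations. Classical monocyte markers, by contrast, had 7 of 8 lower there, with a median of -3.74. The part of these cells in the levels of the Fc receptor genes was not tested.

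The other adaptors that bring an ITAM or a related motif were set beside Fcer1g. Tyrobp (DAP12) measured 13.33 in red pulp macrophages, 13.58 in Spic-positive monocytes and 13.64 in Spic-negative monocytes, a difference of -0.30 between macrophages and Spic-negative monocytes. Hcst (DAP10) differed by -0.86. Cd247, the zeta chain used with Fc gamma RIII in NK cells and with the T cell receptor, was higher in macrophages by 2.25, at log2 6.13, and lay below the floor on both monocyte arrays, at 3.96 in Spic-positive and 3.89 in Spic-negative monocytes.

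Downstream of the ITAM, 24 of 28 listed kinase and signalling genes were compared. In macrophages against Spic-negative monocytes 5 passed 2-fold upwards and 4 downwards, beside 19.6% and 11.3% of all genes. The median was 0.17 against 0.03 over all genes. Higher were the signalling gene Vav2 (2.69), the Src family kinases Fyn (2.30) and Src (1.73), the PI 3-kinase regulatory subunit Pik3r1 (1.55) and the scaffold Gab2 (1.35). Lower were the adaptor Lat2 (-2.87), protein kinase C delta, Prkcd (-1.62), the phospholipase gene Plcg2 (-1.33) and the PI 3-kinase catalytic subunit Pik3cd (-1.26). Syk, the kinase that binds the ITAM, measured 11.31 in macrophages, 11.18 in Spic-positive monocytes and 11.31 in Spic-negative monocytes on its brightest probe set, and a further one gave -1.48 between macrophages and Spic-negative monocytes. Of 13 further probe sets of the 9 genes past 2-fold, 11 had the direction of the one used; the exceptions belong to Src and Gab2. Against Spic-positive monocytes 6 genes were higher in macrophages and 6 lower, beside 22% and 11.6% of all genes. The list was led by Vav2 (2.81) and Pik3r1 (2.49) upwards and Prkcd (-2.09) and Lat2 (-1.86) downwards. Of 18 further probe sets of the genes past 2-fold in this comparison, 13 had the direction of the one used. Between the monocyte populations 1 of the 24 genes was higher and 1 lower, beside 3.49% and 3.06% of all genes. Lat2 was 2-fold lower in Spic-positive monocytes (-1.01). Its other probe sets, under the floor on every array, gave 0.79 and 0.20. Src differed by 1.02 there, but from a level of 4.32 in Spic-negative monocytes, below the floor, and by 0.31 with that level set to the floor.

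Of 13 brakes on ITAM signalling, 12 were compared, and none was 2-fold higher and 1 was lower in macrophages than in Spic-negative monocytes, the ubiquitin ligase gene Cbl (-1.44). Over all genes, 19.6% were higher and 11.3% lower. The 2 further Cbl probe sets above the floor gave -0.93 and 0.13, so 1 of them went the other way. The list median was -0.54, against 0.03 over all genes. SHIP1 (Inpp5d), the phosphatase that the inhibitory receptor recruits, measured 10.24 in macrophages, 10.85 in Spic-positive monocytes and 10.75 in Spic-negative monocytes. The tyrosine phosphatase gene Ptpn6 (SHP-1) measured 11.77 in macrophages, 11.28 in Spic-positive monocytes and 11.65 in Spic-negative monocytes. Both differed by less than 2-fold in every comparison, unlike Fcgr2b, the receptor upstream of them.

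Of 35 listed genes for the actin and membrane machinery of phagocytosis, 30 were compared. Macrophages had 2 of them over 2-fold higher and 7 lower than Spic-negative monocytes, beside 19.6% and 11.3% of all genes. The median was -0.51, against 0.03 over all genes. The actin regulator Coro1a was lower (-3.13), at 9.90 in macrophages, 12.66 in Spic-positive monocytes and 13.02 in Spic-negative monocytes, and its 2 further probe sets gave -2.82 and -3.41. The Wiskott-Aldrich protein gene Was (-1.44), its partner Wipf1 (-1.54), and the adaptor and exchange factor genes Crkl (-1.41), Dock1 (-1.38) and Crk (-1.12) were also lower. Myo10, a myosin of phagocytic cups (2.63), and Evl (1.10), which promotes actin growth, were higher. None of the 30 passed 2-fold between the monocyte populations, beside 6.55% of all genes in either direction.

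The partner of Fcgrt, B2m, measured 13.64 in macrophages, 13.97 in Spic-positive monocytes and 13.77 in Spic-negative monocytes. So the FcRn heavy chain was higher in macrophages while its light chain, shared with MHC class I, differed by less than 2-fold. Among 11 compared genes of FcRn recycling, the endosome GTPase gene Rab4a was 2-fold higher in macrophages than in Spic-negative monocytes (1.30), and Rab11fip1 (-1.14) and Rab7 (-1.02) were lower. Over all genes, 19.6% were higher and 11.3% lower. None of the 11 differed by 2-fold between the monocyte populations, beside 6.55% of all genes.

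Regulators reported for Fc receptor genes went in both directions. Of 19 listed genes 18 were compared, with 5 higher and 5 lower in macrophages than in Spic-negative monocytes, beside 19.6% and 11.3% of all genes. Beside Spic (6.58), the higher ones were the interleukin 10 receptor gene Il10rb (1.21), Tgfbr2 (1.17) and the interferon regulatory factors Irf1 (1.10) and Irf8 (1.06). The interferon gamma receptor chains Ifngr2 (-3.80) and Ifngr1 (-1.25) were lower, as were Stat3 (-1.84), the cytokine receptor gene Csf2rb (-1.44) and C5ar1 (-3.22). C5ar1 was under the floor in macrophages, at 4.48, and differed by -2.68 with that level set to the floor. Of 9 further probe sets of the genes past 2-fold, 8 had the direction of the one used. The exception belongs to Il10rb (-0.07), and 1 Stat3 probe set gave only -0.0072. Ifngr2 measured 7.22 in macrophages, 10.87 in Spic-positive monocytes and 11.02 in Spic-negative monocytes. Its dimmer probe set gave -0.67. Spi1, which encodes PU.1, measured 9.75 in macrophages, 10.45 in Spic-positive monocytes and 10.28 in Spic-negative monocytes. Between Spic-positive and Spic-negative monocytes, Spic (3.56) and C5ar1 (-1.16) were the 2 past 2-fold. Over all genes, 3.49% were higher and 3.06% lower in that comparison. The Spic reporter split these monocytes, so the call of Spic was set by the sort. The other C5ar1 probe set, under the floor on every array, gave 0.30.

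**Figure D3:**
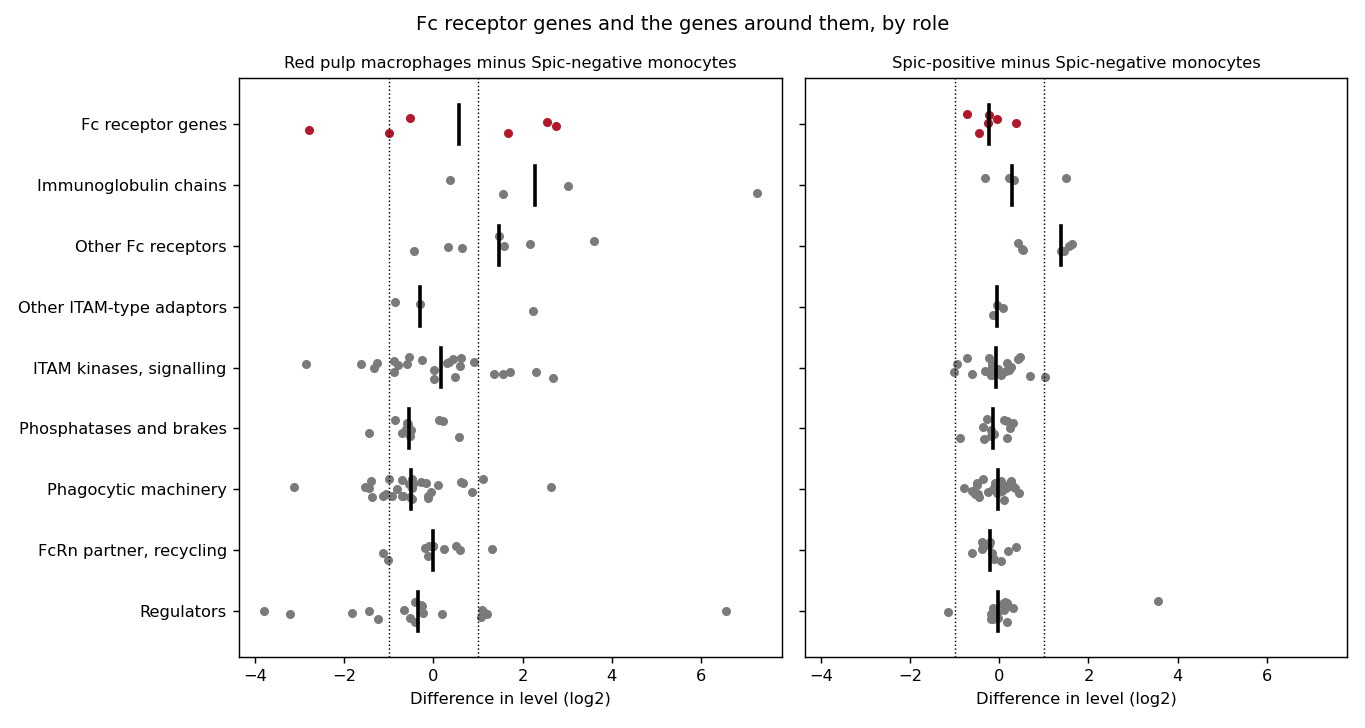
Log2 differences (horizontal axis) of the compared genes of each list (rows), for macrophages minus Spic-negative monocytes on the left and Spic-positive minus Spic-negative monocytes on the right; points are genes, black bars are medians and dotted lines mark 2-fold. The Fc receptor genes (red) have a median of 0.57 on the left and -0.24 on the right, and the other Fc receptors have 1.48 and 1.38, or 0.85 and 0.81 with levels below the floor set to it.

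On the chromosomes, Fcgr2b, Fcgr4, Fcgr3 and Fcer1g lie on chromosome 1, Fcgr1 on chromosome 3 and Fcgrt on chromosome 7. In map order Fcgr2b, Fcgr4 and Fcgr3 are adjacent protein-coding genes, and macrophages differed from Spic-negative monocytes by -2.79, 2.55 and -0.52 across them. So neighbours of the same cluster had opposite differences. Of the 17 other genes within 5 places of a member on chromosome 1, 9 were compared and 3 were at least 2-fold higher in macrophages, namely Fcrla (2.16), Usp21 (1.43) and Cfap126 (1.15). Over all genes, 19.6% were higher. The median of the 9 was 0.68, against 0.03 over all genes. On chromosome 7, Rcn3, the gene next to Fcgrt, was higher by 3.32, at 8.32 in macrophages, 5.18 in Spic-positive monocytes and 5.0 in Spic-negative monocytes. Of the 8 compared neighbours of Fcgrt, the other one past 2-fold was Prrg2 (-1.23). Near Fcgr1, 3 of 10 neighbours were compared, and Txnip was higher by 1.84.

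**Figure D4:**
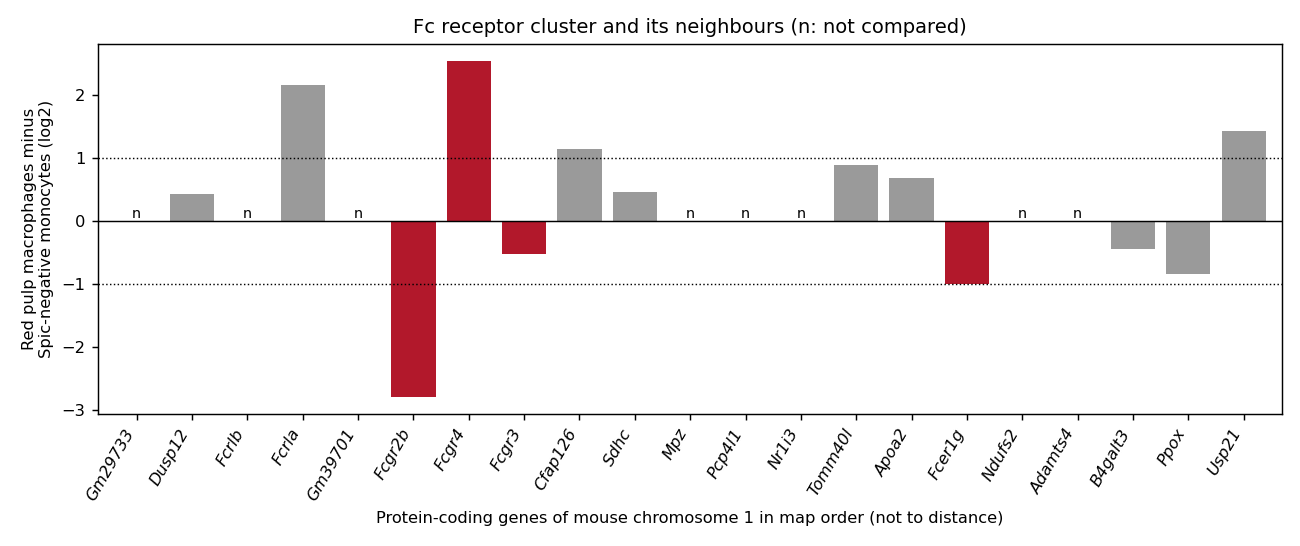
Log2 difference of macrophages minus Spic-negative monocytes (vertical axis) for protein-coding genes of mouse chromosome 1 around the Fc receptor cluster, in map order and not to distance; Fc receptor genes are red, n marks genes not compared, and dotted lines mark 2-fold. Fcgr2b at -2.79 stands beside Fcgr4 at 2.55.

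The genes most like each member were ranked by the largest gap between levels centred on their mean over the 3 arrays. For Fcgr2b these were Sema4d (gap 0.077), Itga4 (0.090) and Clec5a (0.123), and 18 genes lay within 0.25. For Fcgrt they were Rrs1 (0.032), Tal1 (0.057) and Stat4 (0.081), with 32 genes within 0.25. For Fcgr4 they were Lima1 (0.022), Tacc2 (0.023) and Dbp (0.054), with 99 within 0.25. For Fcgr1, Ulk2, Mrpl16 and Cnrip1 came first, with 308 within 0.25. Fcgr3, led by Tut7, Agfg1 and Lyrm1, and Fcer1g, led by Mex3c, Lpcat4 and Ccdc92, had 1951 and 1086 such genes. With 3 arrays a pattern holds little information, so a common pattern such as that of Fcgr3 is matched by many genes.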

How the data were processed

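The authors deposited log2 expression per probe set, and RMA is the tool named per the submitters' processing notes, with its version not given in the sources used here. RMA corrects background, quantile normalizes the arrays and summarises probes. The log2 scale was taken from the values, which run from 1.82 to 14.50. Per the labels' protocols, RNA was column purified and labelled after 2-cycle amplification, which shortens cRNA. That normalization hides differences in total RNA per cell. The number of arrays, 1 per population, limits the precision.

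Of 45101 probe sets, 64 controls were left out. Of the rest 34945 had 1 gene symbol, 932 several and 9160 none. Those with several were not used to name genes. Symbols were updated through the gene identifier with a GRCm38.p6 gene table, used for names and gene order, giving 18193 genes. RefSeq promoters matched all 6 members. Differences were called at 2-fold. The alternatives changed the probe set summary, the scaling, the floor, the probe sets used and the threshold. The members and gene lists were chosen with earlier results of these data known. The genes named are all members, list genes past 2-fold (at most 6 per list and direction) or with a described role, map neighbours, and the 3 genes most like each member. Listed genes with no probe set of their own were not analysed here. Counting was tested on simulated data. Python 3.11.15, numpy 2.4.6, pandas 2.3.3, matplotlib 3.10.9, R 4.3.3 and limma 3.58.1 (cyclic loess) were used.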

Additional observations from a re-analysis of the deposited data

How the results depend on the processing

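Changes of floor left every member value as it was, and the choice of probe sets bears only on Fcgr1 and Fcgr2b. Of the 69 member values that an alternative altered, none changed by more than the robust SD between probe sets of 1 gene (0.53, 0.83 and 0.95 log2 in the comparisons of Spic-positive with Spic-negative monocytes and of macrophages with Spic-negative and Spic-positive monocytes), and none turned direction. The 3 that crossed 2-fold are Fcer1g in macrophages against Spic-negative monocytes, at -0.96 with centred arrays, -0.95 after a second quantile normalization and -0.83 after cyclic loess, so that 1 member in place of 2 was at least 2-fold lower. Scaling moved the median of all genes by over 0.1 for Spic-positive against Spic-negative monocytes after cyclic loess (by 0.10, to 0.04), and for macrophages against Spic-positive monocytes with centred arrays (by 0.13, to 0.23) and after quantile normalization again (by -0.13, to -0.03). From the mean of probe sets, Fcgr1 relative to Fcgr2b was 3.55 in macrophages against Spic-negative monocytes and 4.01 against Spic-positive monocytes.

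With the limit at 4-fold, Spic-positive monocytes had 82 genes higher and 6 lower than Spic-negative monocytes, 913 higher and 325 lower in macrophages than in Spic-negative monocytes, and 893 higher and 252 lower than in Spic-positive monocytes, and 1 member was lower in macrophages than in Spic-negative monocytes. At 2-fold, 237 genes were lower in Spic-positive monocytes with the mean of probe sets, and with a floor at the 75th percentile 249 were higher there and 943 were lower in macrophages than in Spic-positive monocytes. The median of the other Fc receptors between the monocyte populations was 0.79, 0.64 and 0.52 with the mean of probe sets, the median of probe sets and no floor. Mast cell, basophil and eosinophil markers had medians of 0.88 and 4.86 in macrophages against Spic-negative monocytes with no floor and with the higher floor, and of 0.23, 4.37 and 0.75 against Spic-positive monocytes with no floor, the higher floor and cyclic loess. Platelet markers had 4.41 and 3.77 with the higher floor against Spic-negative and Spic-positive monocytes. Classical monocyte markers had -3.86 against Spic-positive monocytes with the mean or the median of probe sets. With levels below the floor set to it, an alternative chosen after seeing the data, 280 genes were higher in Spic-positive than Spic-negative monocytes, the median of the other Fc receptors there was 0.81, and that of mast cell, basophil and eosinophil markers in macrophages against Spic-negative monocytes was 2.18. The causes of these shifts were not tested. No paired analysis was possible because each population had 1 array.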

Other observations

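The IgM heavy chain gene Ighm measured 12.97 in Spic-positive and 11.47 in Spic-negative monocytes on its brightest probe set, but among 8 further probe sets above the floor 2 had that direction. In macrophages all 8 were higher than on either monocyte array. Pik3cd, the catalytic PI 3-kinase subunit, was lower in macrophages than in Spic-negative monocytes by -1.26 on the probe set used and by -4.30 on another.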
